A study of Mus musculus with 4 samples.

Results

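The Myc, Max and Mxd network was followed through its 9 named genes in cultured mouse cells in which Ldha had been knocked down. The genes were Myc, Mycn, Mycl, Max, Mxd1, Mxd3, Mxd4, Mnt and Mga, and the rule took them by symbol. Each had exactly 1 probe set with its symbol alone in the platform's probe table, so 9 probe sets of 41345, and 9 of 22180 tested genes, made up the network here. The cells were 4T1, a mouse mammary carcinoma line, carrying either a short hairpin RNA against Ldha (shLDHA) or one with a scrambled sequence (scramble). Ldha encodes lactate dehydrogenase A, the enzyme subunit that turns pyruvate into lactate. The shLDHA cells were a pool of hairpin-positive cells selected with puromycin at 10 µg/ml. The labels call the cell type LDHA on all 4 arrays, while titles, sources and genotypes separate the groups. Whether the scramble cells were selected as well is not given in the labels, so selection and knockdown cannot be told apart. Cells of both kinds grew in complete medium for 24 hours before RNA extraction, and each group was measured on 2 whole-transcript Affymetrix arrays. No label says that the 2 arrays of a group came from separate cultures, so a p-value here measures the spread between arrays, which may be technical.

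Myc, Mycn and Mycl are transcription factors that must pair with Max to bind the E-box sequence CACGTG, where they activate genes of growth, metabolism and ribosome production. Mxd1, Mxd3, Mxd4 and Mnt pair with Max at the same sequence but recruit the Sin3 corepressor with its histone deacetylases. Mga, the largest member, also pairs with Max, carries a T-box DNA-binding domain of its own, and is the scaffold of the Polycomb complex PRC1.6. Ldha itself is a classic target of Myc.

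RefSeq promoters (GRCm38.p6), running from 250 bases before to 50 bases after the transcript start, were at hand for 8 members, one each; Myc had none. The promoters of Mga and Mxd4 are printed whole because these were the members whose RNA changed, and windows of 60 bases are printed for the other members whose promoters held CACGTG. Capitals mark CACGTG, which is its own reverse complement; in Mga the sequence has no capitals because it held no match. The coordinates were chr2:119896978-119897277 on the plus strand for Mga, chr5:34187661-34187960 on the minus strand for Mxd4, chr12:76962219-76962278 on the minus strand for Max and chr11:74830774-74830833 on the plus strand for Mnt.
Mga: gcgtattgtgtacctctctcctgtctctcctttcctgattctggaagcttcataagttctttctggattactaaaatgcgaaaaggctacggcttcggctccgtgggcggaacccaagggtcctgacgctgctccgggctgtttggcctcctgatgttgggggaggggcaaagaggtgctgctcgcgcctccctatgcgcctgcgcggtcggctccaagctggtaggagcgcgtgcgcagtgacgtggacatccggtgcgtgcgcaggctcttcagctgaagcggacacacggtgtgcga
Mxd4: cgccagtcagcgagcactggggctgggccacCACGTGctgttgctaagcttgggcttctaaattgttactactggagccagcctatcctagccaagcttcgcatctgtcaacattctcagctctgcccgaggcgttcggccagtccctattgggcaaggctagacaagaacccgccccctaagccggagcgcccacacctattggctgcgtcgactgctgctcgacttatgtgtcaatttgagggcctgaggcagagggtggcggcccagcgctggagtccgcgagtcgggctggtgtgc
Max: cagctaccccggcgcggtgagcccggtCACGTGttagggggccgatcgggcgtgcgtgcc
Mnt: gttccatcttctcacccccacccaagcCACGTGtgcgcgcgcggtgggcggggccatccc

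The E-box began 219 bases before the start of Mxd4, 123 before that of Mnt and 3 before that of Max. It was thus present in 3 of the 8 member promoters, and in 7.15% of all 32851 promoters of this length in the table. The member promoters had a GC content of 56.7% to 76.7%, against a median of 52.7% over all promoters. The T-box sequence TCACACCT, searched on both strands (AGGTGTGA on the other), was in 0 of the 8 and in 1.28% of all promoters. A match is only a run of letters in the window, and neither binding nor its effect was measured.

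The targeted transcript was lower in shLDHA. Ldha read 6.31 and 6.15 on the shLDHA arrays and 6.69 and 6.96 on the scramble arrays, in log2 expression, the scale of all levels below. Its log2 change, shLDHA minus scramble throughout, was -0.59 (SE 0.12; adjusted p = 0.0390 by limma with Benjamini-Hochberg adjustment over all genes). The adjusted p was 0.0297 without scramble replicate 1, but the call was lost without scramble replicate 2 (0.128), shLDHA replicate 1 (0.0965) or shLDHA replicate 2 (0.163). Ldha also did not pass when the replicate number entered the limma fit as a block (adjusted p = 0.0734). The 7 epithelial markers examined all stood above 4.16, the level below which 95% of 1088 olfactory receptor genes lay and which serves here as a mark of dim signal. None of 5 endothelial markers did, nor Ptprc, which marks leukocytes; of the fibroblast markers 1 of 8 did (Pdgfra), and of the leukocyte markers 2 of 7 (Cd68 and Cd14). Some markers moved. Of the 7 epithelial markers 2 rose, Epcam by 0.53 (adjusted p = 0.0178) and Krt8 by 0.47 (adjusted p = 0.0255). The others did not pass: Krt18, Krt7 and Cdh1 read higher, and Krt19 (-0.33) and Cldn4 (-0.23) lower on both shLDHA arrays. The list median was 0.24, and summed levels were 64.1 to 64.2 in shLDHA and 63.19 to 63.22 in scramble. Of the leukocyte markers Cd68 fell by 0.91 (adjusted p = 0.00516), while Adgre1 and Cd3e, both dim, read higher without passing. The summed levels of the leukocyte markers were 27.5 to 27.6 in shLDHA and 28.0 to 28.8 in scramble. The part of these markers in the results below was not tested. Since RNA of whole cultures was measured, a change in the share of some cells cannot be told apart from a change in RNA per cell.

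Among the 9 members, 1 fell and 1 rose in shLDHA at an adjusted p under 0.05, and 7 did not pass. Mga fell 1.63-fold and Mxd4 rose 1.40-fold, while Myc, the most studied member, read lower by 0.24 without passing. Over all genes, 6.36% passed in either direction, 2.99% lower and 3.37% higher. The median log2 change of the members was -0.05, against 0.01 over all genes. With so few members, 2 calls say nothing of the network as a group. Both shLDHA arrays lay below both scramble arrays for 3 members (Myc, Max and Mga) and above them for 3 (Mycl, Mxd3 and Mxd4). Over all genes this holds for 24.0% below and 26.2% above, or 50.3% in all, so the separation of the arrays alone sets no member apart.

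**Figure D1:**
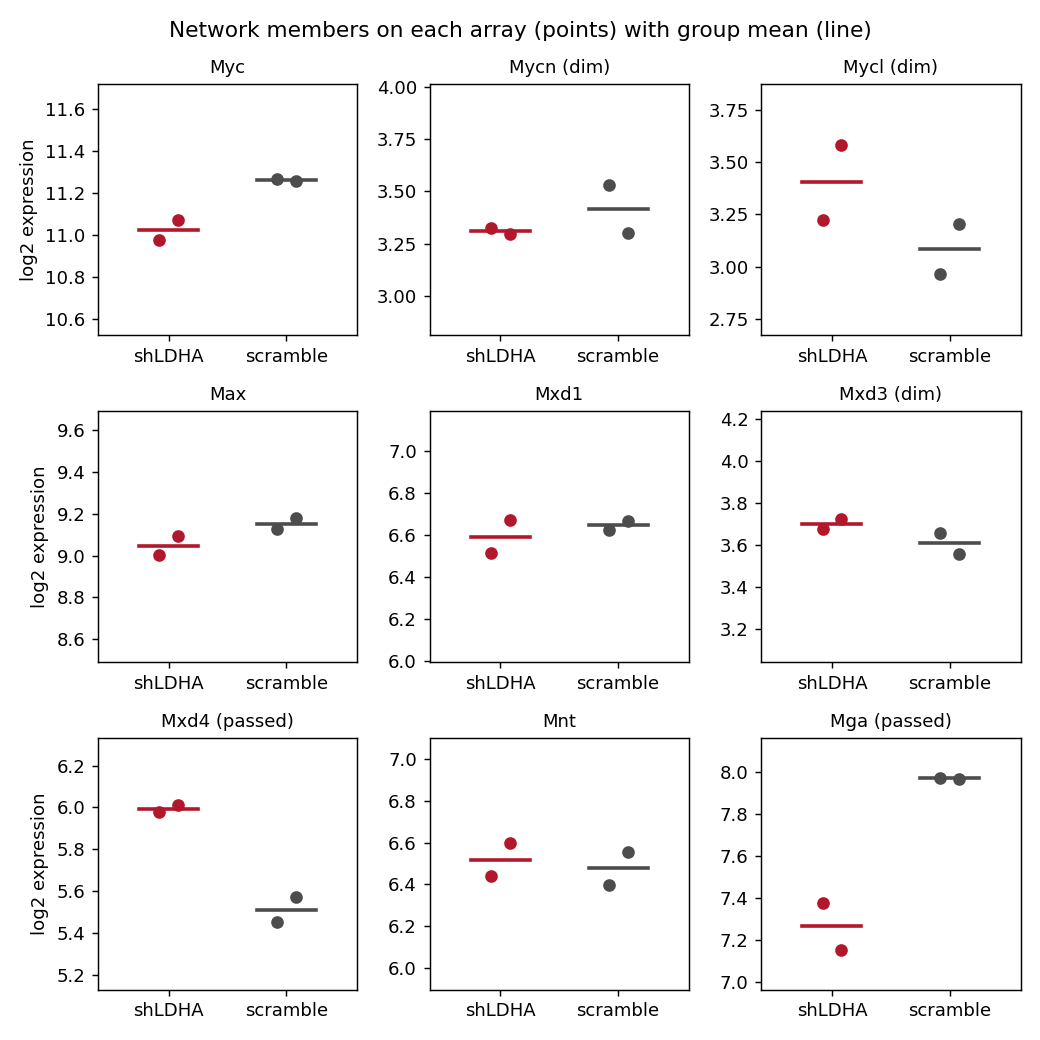
Log2 expression of the 9 network members on each array (points) with group means (lines), shLDHA to the left of scramble; every panel spans the same range of log2 units around its own centre, so panels show changes and not levels between genes. Mga and Myc sit lower and Mxd4 higher on both shLDHA arrays by more than the gap within either group, though Myc did not pass. The panels titled dim stayed below 4.16 in both groups.

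Of the activators, Myc alone stood above the dim mark. It read 10.98 and 11.07 on the shLDHA arrays, against 11.27 and 11.26 on the scramble arrays. Both shLDHA arrays lay below both scramble arrays by more than the gap within either group, and the scramble arrays were nearly equal. The share of all genes with such a gap was not counted. The group means were 11.02 ± 0.07 in shLDHA and 11.26 ± 0.01 in scramble (SD, n = 2 each). The log2 change was -0.24 (SE 0.08), with a 95% interval of -0.44 to -0.03, an unadjusted p of 0.0289 and an adjusted p of 0.172 in the limma fit. A change of at least this size in either direction was seen for 22.0% of all genes. When the variance prior of limma was allowed to follow the level, the same change passed with an adjusted p of 0.00768; this was the 1 of 13 alternative settings in which Myc passed.

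Mycn and Mycl, the relatives known from neural tumours and small cell lung cancer in human, were dim. Mycn read 3.33 and 3.30 on the shLDHA arrays, against 3.53 and 3.30 on the scramble arrays, and the groups overlapped. Mycl read 3.22 and 3.58 on the shLDHA arrays, against 2.97 and 3.20 on the scramble arrays. The shLDHA arrays of Mycl were both higher, by a gap smaller than the one within either group. Neither passed, with adjusted p of 0.634 for Mycn and 0.273 for Mycl in the limma fit. Levels below 4.16 in both groups carry little information on a change, so no fold is given for these genes and their log2 changes carry no result. That of Mycn is given only where its direction is followed over the alternative settings.

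Max, the shared partner of all the other members, was well measured. It read 9.003 and 9.092 on the shLDHA arrays and 9.127 and 9.177 on the scramble arrays. The shLDHA values were both lower, by less than the distance between the shLDHA arrays. The log2 change was -0.10 (SE 0.09), the 95% interval ran from -0.31 to 0.10, and the adjusted p was 0.566. A fall of more than 0.31 or a rise of more than 0.10 in Max RNA lies outside that interval.

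The Mxd genes, which encode repressors often switched on as cells stop dividing and differentiate, gave 1 call, for Mxd4. It read 5.98 and 6.01 on the shLDHA arrays, against 5.45 and 5.57 on the scramble arrays. Both shLDHA arrays were higher, and the gap between the groups exceeded the spread within either. The means were 5.99 ± 0.02 in shLDHA and 5.51 ± 0.08 in scramble (SD, n = 2 each). The log2 change was 0.48 (SE 0.09), with a 95% interval of 0.27 to 0.69, and passed with an adjusted p of 0.0282 in the limma fit. Mxd4 ranked 602 among all genes ordered from the largest rise. Its call needed all 4 arrays. Without scramble replicate 1 the adjusted p was 0.130, without scramble replicate 2 it was 0.0642, without shLDHA replicate 1 it was 0.102 and without shLDHA replicate 2 it was 0.121, with log2 changes between 0.42 and 0.54.

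Mxd1, the founding member of the Mxd family, read 6.51 and 6.67 on the shLDHA arrays and 6.62 and 6.67 on the scramble arrays. The groups overlapped, with a log2 change of -0.05 (95% interval -0.28 to 0.17; adjusted p = 0.807). Mxd3, which unlike its relatives is known from dividing cells in S phase, was dim at 3.68 and 3.72 on the shLDHA arrays and 3.66 and 3.56 on the scramble arrays, and did not pass (adjusted p = 0.623). The rise of Mxd4 therefore had no counterpart past the threshold among the other Mxd genes, but the differences between these genes' changes were not tested.

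Mnt, a repressor that most cell types express and that opposes Myc at shared targets, read 6.44 and 6.60 on the shLDHA arrays, against 6.40 and 6.55 on the scramble arrays. The groups overlapped almost fully. The log2 change was 0.04 (SE 0.10), with a 95% interval of -0.20 to 0.29 and an adjusted p of 0.869.

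Mga showed the largest change of the 9. It read 7.38 and 7.15 on the shLDHA arrays, against 7.97 and 7.97 on the scramble arrays. Both shLDHA arrays were well below the scramble arrays, which agreed closely, while the shLDHA arrays stood further apart. The means were 7.26 ± 0.16 in shLDHA and 7.97 ± 0.00 in scramble (SD, n = 2 each). The log2 change was -0.71 (SE 0.10), with a 95% interval of -0.95 to -0.46 and an adjusted p of 0.0150 in the limma fit. Mga ranked 227 among all genes ordered from the largest fall, and 1.88% of genes changed this far in either direction. It passed in 12 of 13 alternative settings. The exception was the fit without shLDHA replicate 2, the lower of the shLDHA arrays, in which the log2 change was -0.59 and the adjusted p 0.0672.

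**Figure D2:**
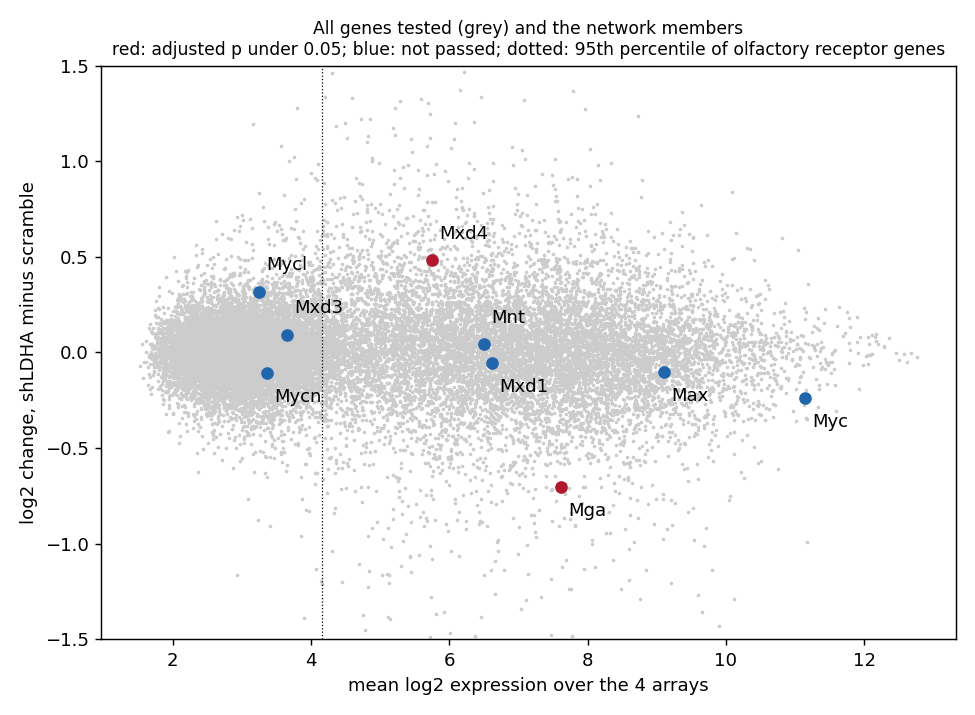
Log2 change (vertical axis, shLDHA minus scramble) against mean log2 expression over the 4 arrays (horizontal axis) for all genes tested (grey) and the members (red, adjusted p under 0.05; blue, not passed); 47 genes beyond the vertical range are not drawn. Mga and Mxd4 lie toward the edges of the cloud, Myc lies at the bright end slightly below 0, and Mycn, Mycl and Mxd3 lie left of the dotted line at 4.16.

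The genes whose pattern over the 4 arrays came nearest to that of a member were found by the root mean square difference between values centred on each gene's mean, among 10427 genes at or above the median level, predicted genes passed over. Nearest to Myc were Pigyl, Fhl2 and Lclat1, at a distance of 0.00335, 0.00705 and 0.00828 on the log2 scale. Nearest to Mxd4 were Ulk1, which encodes a kinase that starts autophagy (0.00572), Galnt12 (0.00883) and Pate14 (0.0123). Nearest to Mga were Adgrg6 (0.0228), Pik3c2a (0.0257) and Il1rap, the gene of the interleukin 1 receptor accessory protein (0.0304). With 4 arrays such matches are a description, and many genes share so short a pattern.

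The wider network includes Mxi1, another Max-binding repressor, and a parallel branch in which Mlx pairs with the glucose-sensing factors Mlxip (MondoA) and Mlxipl (ChREBP); Mlx can also pair with Mxd1, Mxd4 and Mnt. Mxi1 read 7.20 and 7.43 on the shLDHA arrays, against 6.90 and 6.98 on the scramble arrays. Both shLDHA arrays were higher, but the log2 change of 0.37 (95% interval 0.12 to 0.63) did not pass (adjusted p = 0.101), and a second, dimmer probe set gave 0.15. Mlx (0.16) and Mlxip (-0.14) did not pass, and Mlxipl (0.00) was dim.

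Txnip and Arrdc4, related arrestin-domain genes that MondoA and Mlx induce when glucose metabolites accumulate, both changed. Txnip fell to 9.56 and 9.69 on the shLDHA arrays, against 10.08 and 10.04 on the scramble arrays (log2 change -0.43, SE 0.09; adjusted p = 0.0408). Arrdc4 rose to 4.76 and 4.71 on the shLDHA arrays, against 4.07 and 3.84 on the scramble arrays (log2 change 0.78, SE 0.10; adjusted p = 0.0109). Its scramble arrays were below the dim mark of 4.16, so the size of this difference may be understated. The 2 genes were called in opposite directions. Txnip passed in 8 and Arrdc4 in 11 of the 13 alternative settings. Txnip lost its call whichever array was left out (adjusted p of 0.0936 to 0.153), and Arrdc4 lost it without shLDHA replicate 1 (0.0658) or shLDHA replicate 2 (0.0617).

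**Figure D3:**
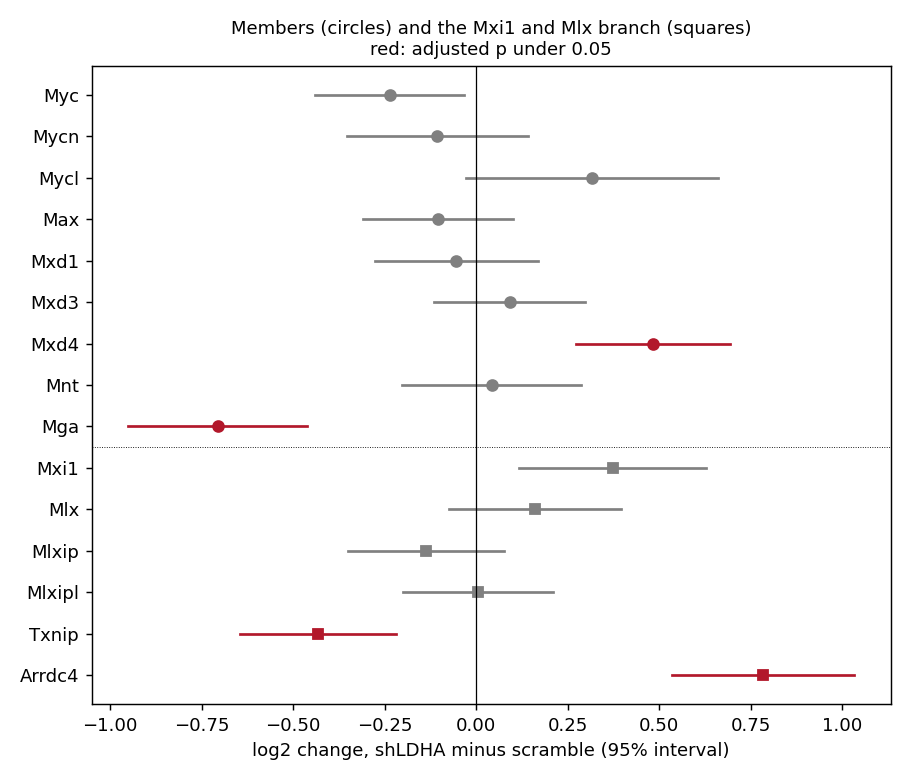
Log2 change of each member (circles) and of the Mxi1 and Mlx branch (squares), shLDHA minus scramble, with the 95% interval of the limma fit; red marks an adjusted p under 0.05. Only Mga, Mxd4, Txnip and Arrdc4 are red, 2 of them below 0 and 2 above, and the intervals of Myc and Mxi1 exclude 0 without passing adjustment.

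Other genes of the pathway were taken from 9 lists chosen by function, the Mxi1 and Mlx branch among them. Of their 128 tested genes, 6 rose and 5 fell, or 8.59%, against 6.36% of all genes. At an unadjusted p under 0.05 the share over all genes was 21.5%, against which the unadjusted counts below are to be read.

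The partners that carry out activation or repression gave 1 call in all. Among 14 coactivators and partners of Myc, 1 fell and 0 rose (median log2 change 0.08). This was Cdk9, the kinase that releases paused RNA polymerase II, at 6.28 and 6.36 on the shLDHA arrays and 6.72 and 6.80 on the scramble arrays (log2 change -0.44, SE 0.09; adjusted p = 0.0365). Its call was lost whichever array was left out (adjusted p of 0.0954 to 0.155). Cdk9 passed in 8 of the 13 alternative settings. Of 15 genes of the Sin3 corepressor 0 passed, while 3 had an unadjusted limma p under 0.05, and the median was 0.08. The smallest p-values there were those of Suds3, a core Sin3 subunit gene (0.37, adjusted p = 0.0522), and the deacetylase gene Hdac2 (0.31, adjusted p = 0.102).

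None of the other PRC1.6 subunit genes examined passed, although their changes were not tested against that of Mga. Of 10 such genes 0 passed, 2 had an unadjusted limma p under 0.05, and the median log2 change was 0.01. The DNA-binding subunit gene E2f6 stood at 7.53 and 7.59 on the shLDHA arrays and 7.30 and 7.20 on the scramble arrays (log2 change 0.31, adjusted p = 0.0994). Cbx3, which encodes an HP1 protein, had a log2 change of 0.26 (adjusted p = 0.134), and 3 further probe sets of it gave 0.08, 0.10 and 0.12. PRC1.6 keeps germ-cell genes silent in mouse embryonic stem cells. Of 13 germ-cell genes 0 passed, 1 had an unadjusted limma p under 0.05, and 0 were above the dim mark in either group. Dazl (adjusted p = 0.176) and Tex101 (adjusted p = 0.233) had the smallest p-values.

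Of 14 genes that control the stability of the Myc protein, 1 rose and 0 fell. Plk1, a mitotic kinase gene, read 8.45 and 8.58 on the shLDHA arrays and 7.79 and 7.89 on the scramble arrays (log2 change 0.68, SE 0.09; adjusted p = 0.0120), and lost its call without shLDHA replicate 2 (0.0716). Although 9 of the 14 had an unadjusted p under 0.05, they went both ways, with Skp2, a ubiquitin ligase subunit gene, at 0.35 (adjusted p = 0.0584) and the kinase gene Gsk3b, whose product marks Myc for destruction, at -0.39 (adjusted p = 0.0762).

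Of 15 regulators of Myc transcription, 2 rose and 0 fell. Tcf7l2, a DNA-binding partner of beta-catenin, read 6.81 and 6.86 on the shLDHA arrays and 6.26 and 6.23 on the scramble arrays (log2 change 0.59, SE 0.08; adjusted p = 0.0137). The receptor gene Notch1 read 5.89 and 5.82 on the shLDHA arrays and 5.24 and 5.37 on the scramble arrays (log2 change 0.55, SE 0.09; adjusted p = 0.0208). Myc RNA itself read lower in shLDHA, without passing. Tcf7l2 passed without scramble replicate 1 alone among the fits on 3 arrays, with adjusted p of 0.0572 to 0.0768 in the other fits. Notch1 passed only without scramble replicate 2, with 0.0843 to 0.0978 in the others.

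Of 30 tested genes that Myc is known to induce, 11 had an unadjusted limma p under 0.05. Among these 11, Prps2 (0.26) and Shmt2 (0.23) read higher and the others lower. Past the threshold 3 of the 30 fell and 0 rose, and the median log2 change of the list was -0.06. They were Odc1, the polyamine synthesis enzyme gene (-0.77), Polr1b, an RNA polymerase I subunit gene (-0.57), and Gnl3, a nucleolar GTPase gene (-0.41). Odc1 stood at 9.61 and 9.71 on the shLDHA arrays, against 10.43 and 10.44 on the scramble arrays, and passed in all 13 alternative settings. Polr1b passed in 10 of these settings and Gnl3 in 7. Polr1b passed without scramble replicate 1 and was lost without any other single array (adjusted p of 0.0659 to 0.0842), and Gnl3 was lost whichever array was left out (0.107 to 0.189).

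Of 11 genes that Myc is known to repress, 2 rose and 0 fell, with a median of -0.00. An unadjusted limma p under 0.05 was seen for 4 of the 11, which went both ways. Thbs1, the gene of the angiogenesis inhibitor thrombospondin 1, read 9.37 and 9.32 on the shLDHA arrays, against 8.06 and 8.16 on the scramble arrays, 2.36-fold higher (log2 change 1.24, SE 0.09; adjusted p = 0.00141), and passed in all 13 alternative settings. Cdkn1b, which encodes the cell cycle inhibitor p27, read 8.77 and 8.72 on the shLDHA arrays and 8.27 and 8.39 on the scramble arrays (log2 change 0.41; adjusted p = 0.0452). It was lost whichever array was left out (0.0977 to 0.196). Cdkn1b passed in 8 of the 13 alternative settings. Cdkn1a, the related inhibitor gene for p21, had a log2 change of -0.29 and did not pass (adjusted p = 0.191).

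**Figure D4:**
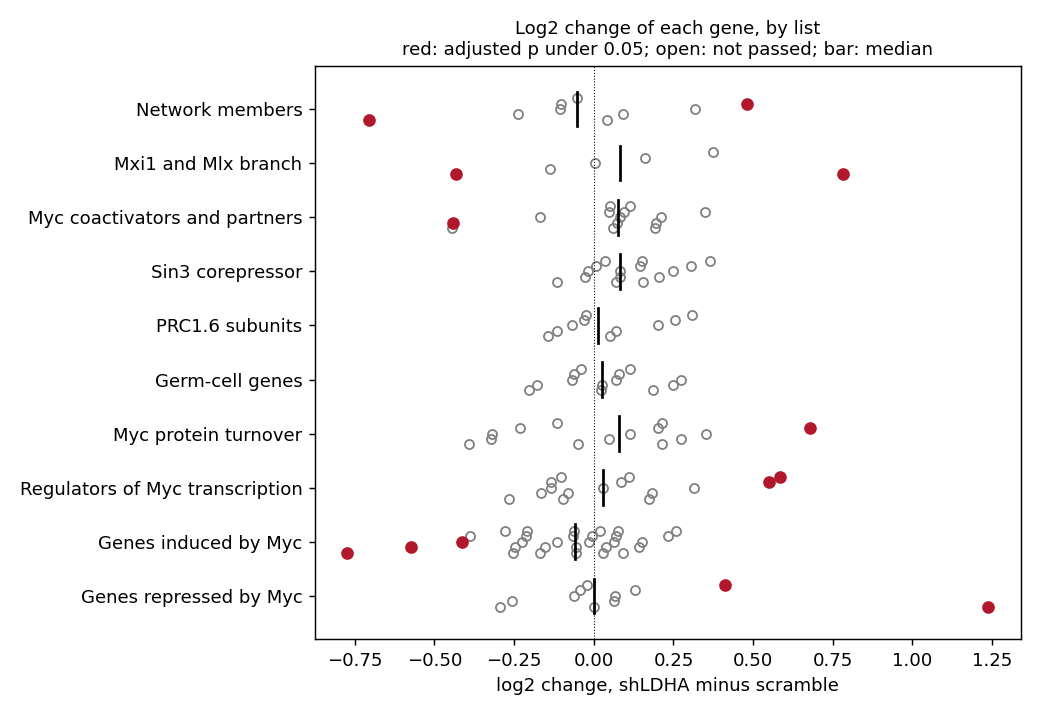
Log2 change of every tested gene (points, shLDHA minus scramble) in the network and in each list of related genes, with the list's median as a bar; red points passed at an adjusted p under 0.05. List medians lie between -0.06 and 0.08. In the 9 lists, 6 red points are above 0, among them the 2 of the genes repressed by Myc. The other 5 are below 0, among them the 3 of the genes induced by Myc.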

How the data were processed

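RNA of 4 samples was measured on whole-transcript arrays, 2 per group, from 400 ng of total RNA. The values deposited by the authors are on a log2 scale; the submitters' processing notes name RMA and R 3.4.0, and no annotation version. Values ran from 1.23 to 12.91. Of 41345 probe sets, 23521 had exactly 1 symbol in the platform table, 1814 several and 16010 none; the first kind entered, and the probe set with the highest mean was kept per gene, leaving 22180 genes. No dim gene was removed.

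Groups came from the sample titles, which the genotype labels match, and 0 columns were left out. The comparison used limma 3.58.1 in R 4.3.3 (lmFit, eBayes) with no covariate, 2 residual and 4.52 prior degrees of freedom, two-sided, at a Benjamini-Hochberg adjusted p under 0.05 over all genes. The median SE was 0.09. The code was tested on simulated data. The number of arrays limits the precision. Each SD was taken over 2 arrays.

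Members and lists were chosen with earlier results of these data known. Named were all members, Ldha, the Mxi1 and Mlx branch, list members past the threshold (at most 6, or the 2 with the smallest p), and the 3 nearest patterns to Myc and to each member that passed; other list genes and markers named were chosen after their values were seen. Of 142 list entries 128 were tested. Alternatives were a replicate block, 2 filters on dim genes, 2 scalings, 2 treatments of probe sets, a variance trend, robust eBayes and leaving out each array, 13 settings in all, and a threshold of 0.1. Figures used matplotlib 3.10.9.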

Additional observations from a re-analysis of the deposited data

How the results depend on the processing

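Mga, Mxd4 and Myc kept their direction in all 13 alternative settings, with log2 changes of -0.82 to -0.59, 0.42 to 0.54 and -0.28 to -0.19. Most of these settings could not have reversed it. The block, filters, probe set treatments, variance trend and robust fit leave the log2 change of these genes as it was. Leaving out 1 array cannot reverse a change where the arrays of the groups do not overlap. Only the 2 scalings could have done so. Directions reversed only among members that did not pass, with 1 array left out: Mycn, dim in both groups, ran from -0.221 to 0.0080 (positive without scramble replicate 1), Mxd1 from -0.134 to 0.0261 (positive without shLDHA replicate 1), and Mnt from -0.0373 to 0.122 (negative without scramble replicate 1 or shLDHA replicate 2). Between 0 and 1 members and 2 to 6 list genes passed with 1 array left out, when 370 to 636 genes passed in all; those fits have fewer samples. The 0 was the limma fit without shLDHA replicate 2, where 3 members, and 18.0% of all genes, had an unadjusted p under 0.05. No label says what arrays of the same replicate number share. Their deviations from the group means correlated at -0.03. With 2 arrays per group this is 1 value up to its sign, so it cannot show whether they were prepared together. In the limma fit with the replicate block 838 genes, 7 list genes and 1 member (Mga, adjusted p = 0.0284) passed. Mxd4 had an adjusted p of 0.0548 there. Keeping genes at or above the median level gave 2783 of 11090 genes and 26 of 107 list genes. That fit tested fewer genes and also had smaller SEs for the members it kept (0.0751 for Myc, against 0.0848). What raised the counts was not tested. A variance trend gave 2806 genes and 34 list genes, and its cause was not tested. A threshold of 0.1 gave 2391 and 18. Centring arrays on their median gave 688 higher and 689 lower genes, against 747 and 663. Signals near the dim mark of 4.16 limit what can be said of Mycn, Mycl and Mxd3.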
